A study of Mus musculus with 6 samples.

Results

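The mitochondrial ribosomal protein genes are the protein-coding genes whose symbols start with Mrpl or Mrps followed by a digit. They were found by mapping the identifiers of the count tables to GENCODE release M21 (assembly GRCm38), which gave 78 of the 51826 genes listed. All 78 passed the filter on low counts, among 21518 genes tested. RNA was sequenced from whole testes of C57BL/6J mice at 8 weeks of age, in 3 wild-type and 3 KIFC1 knockout samples. Both groups thus share strain, age and tissue and differ by genotype as labelled. The series title connects the kinesin KIFC1 with recombination in meiosis and with fertility of males. The sources used here give neither the allele behind the knockout nor whether KIFC1 was lost in all cells. The labels also do not state that each sample is another animal. The p-values therefore cover only how far these samples spread, which may be technical.

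Mitochondria carry their own ribosome, which translates only the mRNAs of the mitochondrial genome, all of them for subunits of the respiratory chain and of ATP synthase. Its ribosomal RNAs come from the mitochondrial genome, but every one of its proteins is encoded in the nucleus, made in the cytosol and imported. The small subunit reads the mRNA and the large subunit joins amino acids and is held at the inner membrane. Part of the proteins have counterparts in bacterial ribosomes and the rest are specific to mitochondria. In the testis, germ cells change their mitochondria in number, shape and placement as they pass from spermatogonia through meiosis to sperm, where mitochondria wrap the midpiece of the tail.

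Library totals ran from 29274603 to 38703606 counts. Levels are given as counts per 1000000 (CPM) scaled by TMM factors, folds are knockout over wild type, and a gene is called where edgeR's adjusted p is under 0.05. Kifc1 stood at 15.5, 16.1 and 14.7 CPM in wild type against 0.326, 0.737 and 0.282 CPM in knockout, as the labels say. The libraries differed in base composition: the rank correlation of a gene's deviation with its exon GC content, across 12751 genes, was 0.27 to 0.53 in wild type and -0.68 to -0.13 in knockout. Reads of the mitochondrial genome took 0.661 to 0.935% of counts in wild type and 1.54 to 5.74% in knockout, lowest in knockout 2. Of the cell markers, 1 of 5 for spermatocytes (Sycp1) was called higher. So were 1 of 6 for elongating spermatids (Smcp) and 1 of 6 for Sertoli cells (Rhox8). Another 2 of the 6 for elongating spermatids (Prm1 and Tnp2) and 1 of 3 for blood (Alas2) were called lower. Median log2 fold changes were -0.0035 for spermatocytes (3 of 5 below 0), -0.54 for elongating spermatids, 0.70 for Sertoli cells and -0.81 for blood. No marker of spermatogonia, round spermatids, Leydig cells, myoid cells or macrophages was called, and 3 of 4 epididymal markers (Crisp1, Lcn5, Adam7) were at 0 in every sample. Once base composition and exon length were adjusted for, as set out later, 0 markers of any cell type were called. In that fit only 0.0186% of all tested genes were called higher and 0.0651% lower. The median log2 fold changes were then 0.12 for spermatocytes, -0.24 for elongating spermatids, 0.93 for Sertoli cells and -0.64 for blood. The part of cell composition in the results below was not tested.

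Messenger RNAs for 11 of the 78 mitochondrial ribosomal proteins were called lower in knockout testes and none higher. The 11 are Mrps12, Mrps24, Mrps16, Mrps26 and Mrps11 of the small subunit and Mrpl54, Mrpl52, Mrpl20, Mrpl57, Mrpl28 and Mrpl10 of the large subunit. Over all tested genes, 5.12% were called lower and 3.11% higher, against 14.1% and 0% of the members. At an unadjusted p under 0.05, 25 members were lower and 1 was higher, where 15.0% and 12.1% of all tested genes were. DESeq2's Wald test called 16 members lower, all 11 among them, and 1 higher, beside 8.19% lower and 7.17% higher over all genes. The 5 members called lower by DESeq2 alone were Mrps14, Mrpl44, Mrpl2, Mrps18a and Mrpl11, with DESeq2 adjusted p from 0.0143 to 0.0245, of which Mrpl44 is named only for this count, after its values were seen. Most of the shifts were small: the median log2 fold change of the members was -0.31, beside -0.0088 over all tested genes, and 60 of 78 were below 0. In these bulk samples, fewer cells of a type and less RNA per cell cannot be told apart.

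**Figure D1:**
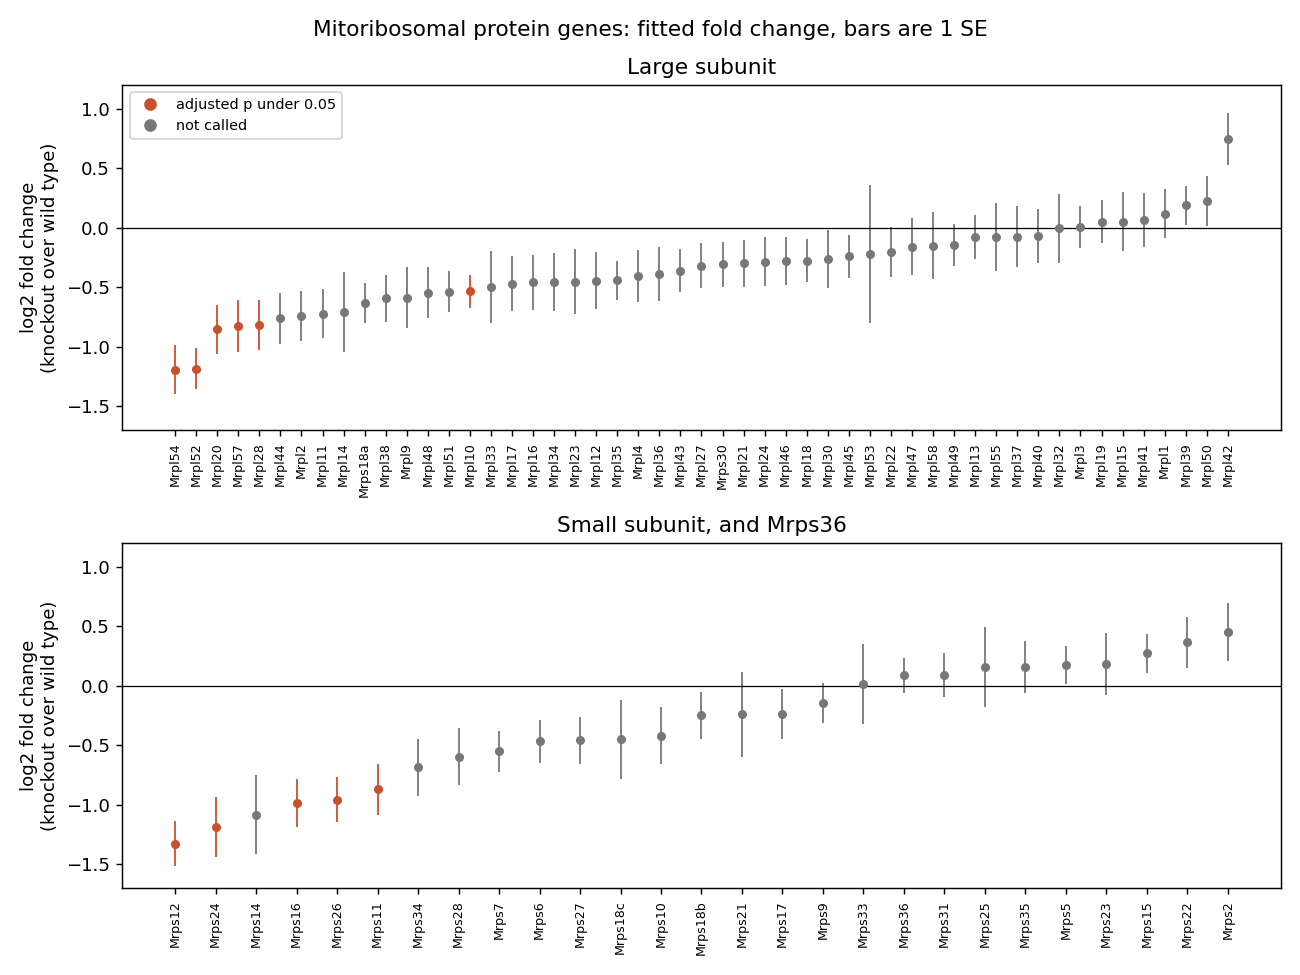
Log2 fold change (knockout over wild type) of the 51 large-subunit genes (upper panel) and the 26 small-subunit genes with Mrps36 (lower panel), ordered by size; points are edgeR estimates and bars are 1 SE. The 11 genes called at an adjusted p under 0.05 are in red and all lie below 0, from -1.33 to -0.53, while Mrpl42 stands highest at 0.75.

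The largest fall was in Mrps12 (ENSMUSG00000045948, chromosome 7, 28739641 to 28741820, minus strand, mm10), which encodes the protein of the decoding site where bacteria can acquire streptomycin resistance. It stood at 23.8, 26.1 and 20.2 CPM in the wild-type samples, against 8.31, 8.93 and 10.7 CPM in the knockout samples. The groups did not overlap, and the lowest wild-type sample was well above the highest knockout sample. The knockout mean was 39.9% of wild type, a log2 fold change of -1.33 (SE 0.19, adjusted p = 0.0161 by edgeR). Mrps12 lies head to head with Sars2, which encodes the mitochondrial seryl-tRNA synthetase, with 172 bases between their starts. Sars2 was not called (log2 fold change -0.21, adjusted p = 0.611 by edgeR).

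Mrpl54 (ENSMUSG00000034932, chromosome 10, 81264713 to 81266934, minus strand), a large-subunit protein without a bacterial counterpart, was the most abundant member per length of transcript. Its wild-type samples held 142, 116 and 84.6 CPM and its knockout samples 46.4, 45.8 and 57.6 CPM. The knockout samples were all below the wild-type samples, though wild type 3 stood nearer to them than the other two. The log2 fold change was -1.19 (SE 0.21, adjusted p = 0.0186 by edgeR). Its head-to-head neighbour Apba3, 26 bases away, was also called lower (log2 fold change -0.97, adjusted p = 0.0201 by edgeR).

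Mrpl52 (ENSMUSG00000010406, chromosome 14, 54426909 to 54429756, plus strand), also specific to the mitochondrial large subunit, showed little spread within the groups. It measured 27.4, 28.3 and 25 CPM in wild type against 10.8, 11 and 13.8 CPM in knockout. The groups stood well apart, with a log2 fold change of -1.18 (SE 0.17, adjusted p = 0.0161 by edgeR). Mrps24 (ENSMUSG00000020477, chromosome 11, 5703983 to 5715680, minus strand), whose bacterial counterpart sits where mRNA enters the small subunit, held 9.86, 9.47 and 5.82 CPM in wild type and 3.64, 3.83 and 3.57 CPM in knockout. Its knockout values were nearly equal while wild type 3 stood below the other wild-type samples. The log2 fold change was -1.19 (SE 0.25, adjusted p = 0.0282 by edgeR). Urgcp overlaps 15.4% of its exons, and the strand setting of the counting is unknown, so its level is uncertain.

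Of the other small-subunit calls, Mrps16 (ENSMUSG00000049960, chromosome 14, 20389304 to 20393634, minus strand), a gene of inherited respiratory chain deficiency in humans, held 14.6, 14.4 and 10.6 CPM in wild type and 6.41, 6.38 and 7.26 CPM in knockout. Mrps26 (ENSMUSG00000037740, chromosome 2, 130563742 to 130568695, plus strand), specific to mitochondria, held 39.9, 29 and 29.8 CPM against 16.7, 15.1 and 19.0 CPM. Mrps11 (ENSMUSG00000030611, chromosome 7, 78783119 to 78792989, plus strand), a protein of the platform, held 56.1, 42.2 and 38.9 CPM against 21.8, 31.6 and 21.7 CPM. All 3 genes were lower in every knockout sample than in any wild-type sample. Mrps16 and Mrps26 fell to about the same extent, with log2 fold changes of -0.98 (SE 0.20, adjusted p = 0.0255 by edgeR) and -0.96 (SE 0.19, adjusted p = 0.0233 by edgeR). Mrps11 had a log2 fold change of -0.87 (SE 0.21, adjusted p = 0.0423 by edgeR), and its exons overlap those of Mrpl46, another member on the other strand that was not called (-0.28, adjusted p = 0.406 by edgeR). Exons of Mrps26 also overlap those of another tested gene. With the strand setting unknown, the levels of Mrps11 and Mrps26 are uncertain.

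Promoter sequences of called members are shown as a description, and control by a shared factor was not tested. They are the bases upstream of the transcription start, 5′ to 3′ on the strand of the gene, from RefSeq on GRCm38.p6. Capitals mark the motifs searched, on either strand, and a sequence stops where a head-to-head coding gene begins. The windows are chr7:28741822-28741993 (minus strand) for Mrps12, chr14:54426709-54426908 (plus strand) for Mrpl52 and chr2:130563557-130563756 (plus strand) for Mrps26.
Mrps12: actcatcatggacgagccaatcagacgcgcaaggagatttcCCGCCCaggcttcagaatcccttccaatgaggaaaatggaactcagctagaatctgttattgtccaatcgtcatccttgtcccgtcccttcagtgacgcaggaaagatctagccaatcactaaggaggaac
Mrpl52: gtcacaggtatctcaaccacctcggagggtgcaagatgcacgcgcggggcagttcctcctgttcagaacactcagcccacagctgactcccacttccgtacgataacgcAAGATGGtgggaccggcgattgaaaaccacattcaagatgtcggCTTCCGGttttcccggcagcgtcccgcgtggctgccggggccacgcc
Mrps26: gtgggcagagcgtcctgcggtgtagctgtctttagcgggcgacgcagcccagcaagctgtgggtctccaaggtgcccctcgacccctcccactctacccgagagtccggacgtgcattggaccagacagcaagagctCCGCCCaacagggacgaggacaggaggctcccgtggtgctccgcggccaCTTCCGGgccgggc

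In Mrps12 the capitals are an SP/KLF motif, in Mrpl52 a YY1 motif and then an ETS motif, and in Mrps26 an SP/KLF motif and then an ETS motif. RefSeq windows from 250 bases before to 50 bases after the start were found for 69 of the 78 members, 10 of the 11 called genes among them, and not for Mrpl54. The ETS motif CCGGAAG, read by GABPA, was in 24 of the 69 windows (34.8%), against 8.86% of all 32851 promoter windows. The NRF1 motif, a GC-rich palindrome, was in 13 (18.8%), against 4.6% of all windows, and the YY1 motif AAGATGG in 13 (18.8%), against 6.34%. The SP/KLF motif GGGCGG was in 34 (49.3%), against 35.7%, and the CRE TGACGTCA in 2 (2.9%), against 1.79%. Among the 10 called members with a window, 4 held the ETS motif, 4 YY1, 2 NRF1, 6 SP/KLF and 0 the CRE. Both strands were searched, none of these motifs contains another, and a match of letters is not a measured binding site. Each member gave a single window, while the 32851 windows were not reduced to a single window per gene or to coding genes. The start used lay 7979 bases from the GENCODE start in Mrps24 and 17016 bases in Mrpl33. The YY1 match counted for Mrps12 begins 198 bases upstream, beyond the start of Sars2.

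The other large-subunit calls were smaller. Mrpl20 (ENSMUSG00000029066, chromosome 4, 155802878 to 155809975, plus strand), whose bacterial counterpart binds early in assembly, held 101, 89.3 and 63.0 CPM in wild type and 38.2, 49.4 and 52.4 CPM in knockout. Mrpl57 (ENSMUSG00000021967, chromosome 14, 57826234 to 57829296, plus strand), specific to mitochondria, held 64.9, 55.9 and 43.8 CPM against 28.1, 25.6 and 39.1 CPM. Mrpl28 (ENSMUSG00000024181, chromosome 17, 26123500 to 26126613, plus strand) held 38.4, 34.8 and 26.8 CPM against 16.5, 16.6 and 23.7 CPM. In all 3 the groups stood apart only narrowly, with wild type 3 the lowest wild-type sample and knockout 3 the highest knockout sample. Their log2 fold changes were -0.85 (SE 0.21), -0.83 (SE 0.22) and -0.82 (SE 0.21), with edgeR adjusted p of 0.0406, 0.0493 and 0.0489. In all, 5 of the 11 calls had an adjusted p between 0.04 and 0.05.

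**Figure D2:**
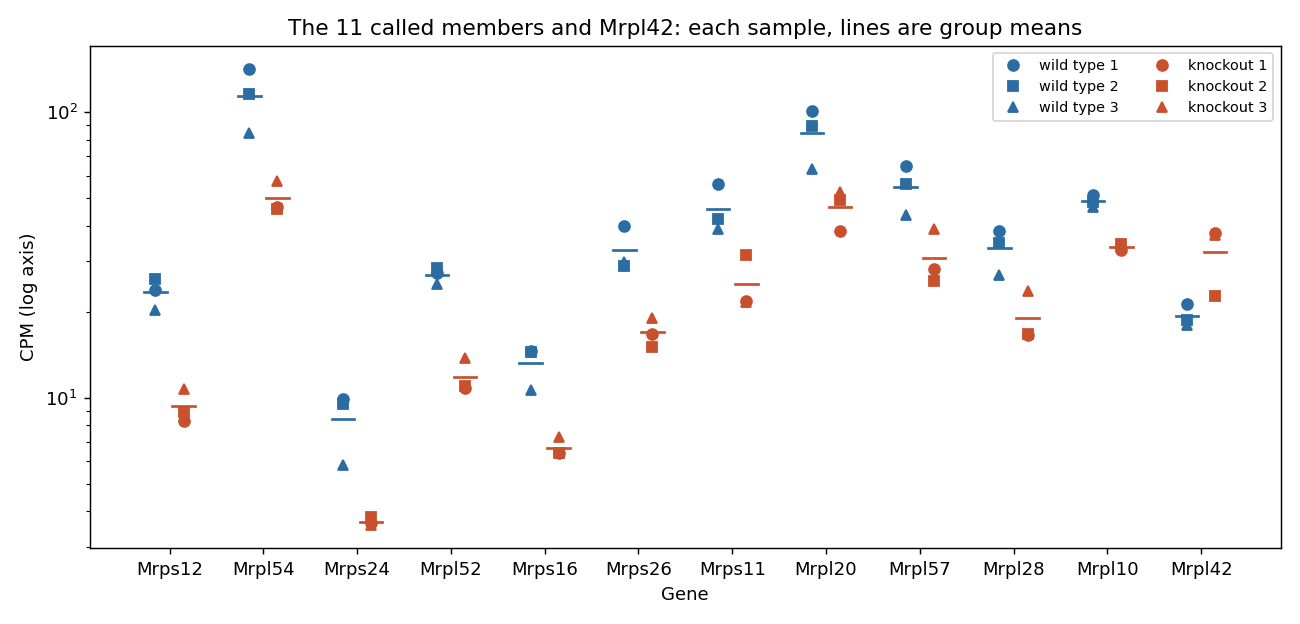
CPM (log axis) of each sample for the 11 called genes, ordered by fold change, and for Mrpl42; colours are the groups, symbols the sample numbers and horizontal lines the group means. In the 11 called genes each knockout sample lies below each wild-type sample, and in Mrpl42 the order is the other way round.

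The stalk of the large subunit recruits the GTPases that drive translation. Mrpl10 (ENSMUSG00000001445, chromosome 11, 97041560 to 97049213, plus strand), the base of the stalk, held 51.3, 48.4 and 46.4 CPM in wild type and 32.8, 34.4 and 33.7 CPM in knockout. It had the smallest fold of the called members and the smallest error (log2 fold change -0.53, SE 0.14, adjusted p = 0.0483 by edgeR), with groups well apart. Mrpl11, beside it in the stalk base, was lower in every knockout sample and not called by edgeR (log2 fold change -0.72, SE 0.21, adjusted p = 0.0644). Mrpl12, the mobile stalk protein that also binds the mitochondrial RNA polymerase, held 144, 111 and 84.9 CPM in wild type and 77.7, 65.5 and 107 CPM in knockout. Its groups overlapped (log2 fold change -0.45, SE 0.24, adjusted p = 0.265 by edgeR). The differences between these genes were not tested.

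Genes of the catalytic centre, the membrane anchor and ribosome rescue were not called by edgeR. Mrpl2, next to the peptidyl transferase centre, had 23.1 ± 5.01 CPM in wild type against 13.8 ± 2.29 CPM in knockout (SD, n = 3), without overlap (log2 fold change -0.74, adjusted p = 0.0639 by edgeR). Mrpl3, which reaches to the same centre, had 20.5 ± 2.88 and 20.7 ± 2.02 CPM (SD, n = 3), a log2 fold change of 0.01. Mrpl45, which holds the ribosome at the inner membrane, had a log2 fold change of -0.24 (SE 0.18). Mrpl58, a peptidyl-tRNA hydrolase that frees stalled ribosomes, had one of -0.15 (SE 0.29), and Mrps30, a large-subunit protein in spite of its symbol, one of -0.31 (SE 0.19).

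The 3 relatives of a single bacterial protein differ in place: Mrps18a belongs to the large subunit, and Mrps18b and Mrps18c occupy separate sites of the small subunit. Mrps18a was lower in every knockout sample, with 53.8, 49.0 and 42.8 CPM in wild type and 26.4, 34.9 and 32.6 CPM in knockout, and was not called by edgeR (log2 fold change -0.63, SE 0.17, adjusted p = 0.054). Mrps18b (-0.25, SE 0.20) and Mrps18c (-0.45, SE 0.33) overlapped between the groups. Mrps18b shares 30.5% of its exons with Gm16279, so its level is uncertain. The differences between the relatives were not tested.

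A further small-subunit gene, Mrps14, falls outside the rule for named genes and was chosen after its values were seen. It held 25.5, 17.0 and 14.5 CPM in wild type and 5.84, 13.4 and 7.70 CPM in knockout. The groups did not overlap, but knockout 2 stood close to wild type 3, and the gene was called by DESeq2 but not by edgeR (log2 fold change -1.08, SE 0.33, edgeR adjusted p = 0.0772). Mrps7, which binds the head of the small subunit, was likewise lower in each knockout sample without a call (log2 fold change -0.55, SE 0.17, adjusted p = 0.0836 by edgeR). In all, 27 members had every knockout sample below every wild-type sample, or 34.6%, against 18.1% of all tested genes. Of these, 16 were not called by edgeR.

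No member was called higher by edgeR. Mrpl42 (ENSMUSG00000062981, chromosome 10, 95480805 to 95501940, minus strand), a large-subunit protein specific to mitochondria, was the single member with every knockout sample above every wild-type sample, where 14.6% of all tested genes were. It held 21.3, 18.8 and 18 CPM in wild type and 37.6, 22.7 and 37.2 CPM in knockout. Knockout 2 was near the wild-type range and the other two knockout samples were well above it (log2 fold change 0.75, SE 0.22, adjusted p = 0.0673 by edgeR). DESeq2's Wald test called it (adjusted p = 0.0155). In Mrps2 too, knockout 2 was the lowest knockout sample. Mrps2 held 15.1, 16.7 and 18 CPM in wild type and 25.6, 14.6 and 27.9 CPM in knockout. Its groups overlapped (log2 fold change 0.45, SE 0.25, adjusted p = 0.274 by edgeR). Mrps22 (0.36, SE 0.21) and Mrps15 (0.27, SE 0.17), both of the small subunit, had the next largest positive log2 fold changes. Mrps36, now known as a part of the oxoglutarate dehydrogenase complex and not of the ribosome, had 37.0 ± 2.74 CPM in wild type against 39.3 ± 2.23 CPM in knockout (SD, n = 3), with overlap (log2 fold change 0.09, SE 0.15).

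By subunit, 6 of 51 large-subunit genes and 5 of 26 small-subunit genes were called lower, with median log2 fold changes of -0.32 and -0.33. Fold changes were below 0 for 84.3% of the large-subunit genes and 65.4% of the small-subunit genes. By descent, 7 of 46 genes with a bacterial counterpart and 4 of 31 genes specific to mitochondria were called, with medians of -0.43 and -0.24. Within the small subunit, the median was -0.46 over 16 genes with a bacterial counterpart and 0.05 over 10 genes without one, of which 4 were below 0. In this split Mrps18a and Mrps18b, described above as relatives of a bacterial protein, were placed with the genes specific to mitochondria. Mrps18b (log2 fold change -0.25) is thus among the 10 small-subunit genes counted without a counterpart, and among the 4 below 0. The differences between these groups were not tested.

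Per length of transcript the members spanned a wide range. The mean over all samples ran from 0.889 to 99.4 reads per 1000 bases and 1000000 counts (RPKM), with a median of 9.24 RPKM. Mrpl54 (99.4 RPKM), Mrpl12 (64.2 RPKM) and Mrpl39 (60.0 RPKM) led the large subunit, and Mrps15 (18.2 RPKM), Mrps21 (17.4 RPKM) and Mrps18b (17.0 RPKM) the small subunit. The lowest of the large subunit were Mrpl53 (0.889 RPKM), Mrpl23 (0.971 RPKM) and Mrpl33 (1.26 RPKM), and of the small subunit Mrps35 (0.965 RPKM), Mrps17 (1.88 RPKM) and Mrps10 (2.28 RPKM). Of these 12, only Mrpl54 was called. Mrpl39 stood at 142 ± 23.6 CPM in wild type against 162 ± 16.1 CPM in knockout (SD, n = 3), with overlap (log2 fold change 0.19). RPKM here divides by the union of all annotated exons, so genes with long or alternative exons are given low values. Exons of 27 members overlap those of another tested gene, 8 of them over more than 20% of their length, as in Mrpl53, where the overlap is 88.0%.

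The summed level of these transcripts did not separate the groups. The summed CPM of the 78 genes was 3019, 2506 and 2159 in wild type 1, 2 and 3 and 1912, 1959 and 2264 in knockout 1, 2 and 3, so wild type 3 lay below knockout 3. Wild type 1 was the highest of all samples in 53 of the 78 members, against 23.4% of all tested genes. Within wild type it was the highest in 63 members and wild type 3 the lowest in 65, and within knockout, knockout 3 was the highest in 43. The median deviation from a gene's mean on the log2 scale was 0.44, 0.16 and -0.041 in wild type and -0.28, -0.13 and -0.047 in knockout. Wild type 1 also had the lowest summed CPM of Leydig cell markers (594.5, against 962 to 1483 in the other 5 samples) and of Sertoli cell markers (702, against 975 to 1575). The part of this in the members' values was not tested.

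**Figure D3:**
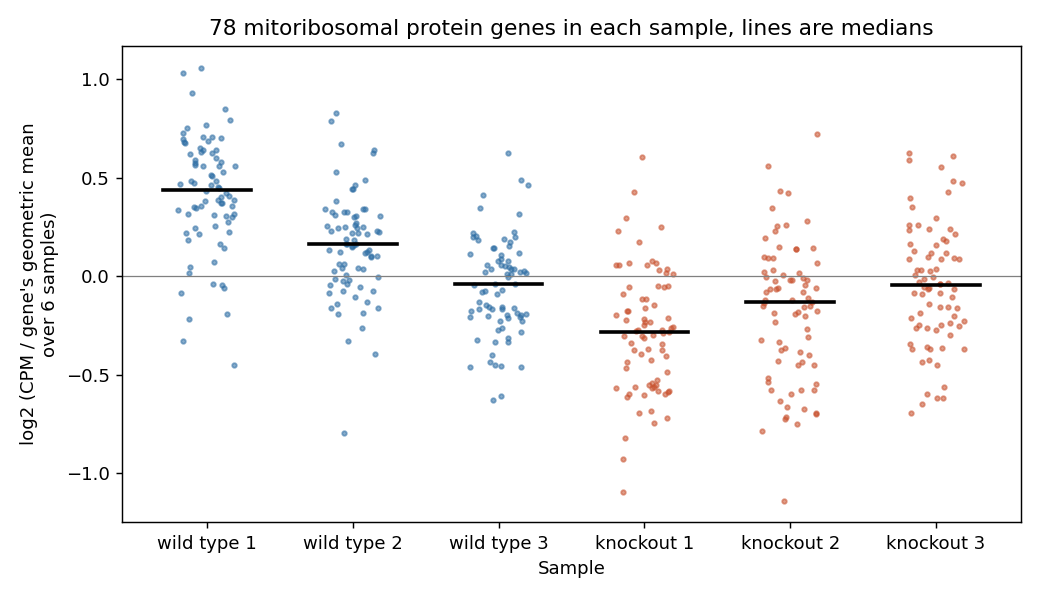
Each point is 1 of the 78 genes in 1 sample, as log2 of its CPM over the gene's geometric mean in the 6 samples; horizontal lines are medians. Wild type 1 stands highest (70 genes above 0), knockout 1 lowest (16 genes above 0), and wild type 3 and knockout 3 (36 and 33 genes above 0) lie at nearly the same height.

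The calls depended on single libraries. Without wild type 1, without wild type 2 or without knockout 1, 0 members were called by edgeR, where 0.0135%, 0.00452% and 0.00454% of all tested genes were called lower. In these fits 17, 19 and 19 members had an unadjusted p under 0.05 and a lower level. The matching share of all tested genes was not computed, so these counts cannot be set against it. Without wild type 3 the count was 6, beside 1.44% of all tested genes, and without knockout 3 it was 3, beside 1.09%. Without knockout 2 it was 15, of which 9 were among the 11, but 7.69% of all tested genes were then called lower. In that fit 2 members were called higher, beside 6.62% of all tested genes. The median log2 fold change of the members was -0.15 without wild type 1 and between -0.44 and -0.28 without any other sample. All 11 called members kept a negative fold change in each of these fits, which reuse the samples that chose them.

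Base composition moved with the result. The exon GC content of the members ran from 39.4 to 59.3%, with a median of 49.9% beside 48.8% over all tested genes. All 12 members above 55% GC had fold changes below 0, and 4 of them were called, with a median of -0.70, and over all tested genes in that range 15.5% were called lower, with a median of -0.42. Of 18 members at or below 45% GC, 1 was called lower (Mrpl57) and the median was -0.19, while 0.234% of all tested genes there were called lower, with a median of 0.31. Between these, 2 of 21 members from 45 to 50% and 4 of 27 from 50 to 55% were called lower, where 1.49% and 7.11% of all tested genes were. The medians of the members were -0.16 and -0.30, beside 0.05 and -0.19 over all tested genes. The rank correlation of fold change with GC content was -0.40 across the 78 members and -0.47 across all tested genes, which share the 6 libraries.

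After removal of the trends that each library showed with GC content and exon length, 0 members were called by edgeR, and over all genes 0.0186% were called higher and 0.0651% lower. At an unadjusted p under 0.05, 19 members were then lower and 3 higher, where 11.0% and 11.4% of all tested genes were. The median of the members was -0.20, beside 0.0086 over all tested genes, and 59 of 78 remained below 0. Correlations with GC content were positive in every wild-type and negative in every knockout library. A genotype difference that goes with GC content is therefore removed with the trends, and how much was removed was not tested. The 11 genes called without this removal were all still below 0, with log2 fold changes from -0.99 (Mrpl57) to -0.27 (Mrpl10). By edgeR, 9 of them had an unadjusted p under 0.05, and the adjusted p of the 11 ran from 0.0624 to 0.254. The largest fold change was then that of Mrps14 (-1.38, adjusted p = 0.0692 by edgeR), the gene of low GC content (40.9%) described above.

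**Figure D4:**
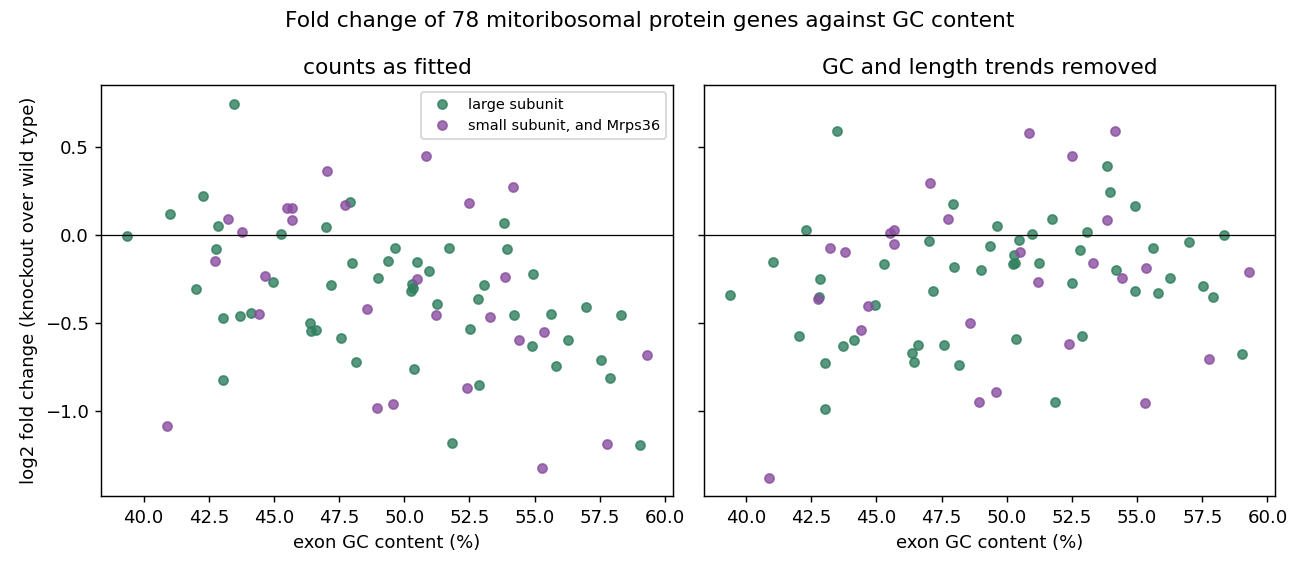
Log2 fold change of the 78 genes against the GC content of their exons (%), as fitted to the counts (left) and with the trends of each library removed (right); colours are the subunits. On the left the genes above 55% GC all lie below 0 and the rank correlation is -0.40, and on the right it is 0.17.

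Other parts of the same machinery were read from lists of genes. Of 68 tested genes for other ribosomal proteins, translation factors, assembly factors and aminoacyl-tRNA synthetases of mitochondria, 7 were called lower and 0 higher by edgeR, with a median log2 fold change of -0.30. The 7 lower calls are 10.3% of these genes, where 5.12% of all tested genes were called lower and 3.11% higher. At an unadjusted p under 0.05, 24 were lower and 4 higher, where 15.0% and 12.1% of all tested genes were. Of the 5 ribosomal proteins under other names 0 were called, among them Dap3, a GTP-binding protein of the small subunit (-0.48, SE 0.23), and Gadd45gip1 of the large subunit (-0.60, SE 0.28). Of 16 translation factors 1 was called, Tufm, the elongation factor that brings charged tRNA to the ribosome. It held 41.6, 39.9 and 40.7 CPM in wild type and 18.9, 23.7 and 22.2 CPM in knockout, without overlap (log2 fold change -0.92, SE 0.15, adjusted p = 0.018 by edgeR). Tsfm, its exchange factor, was not called (-0.85, SE 0.26, adjusted p = 0.0786 by edgeR).

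Of 27 assembly factors 4 were called lower: the RNA helicase gene Dhx30 (log2 fold change -0.74), the GTPase gene Gtpbp6 (-1.04), the protease gene Spg7 (-0.61) and the pseudouridine synthase gene Rpusd3 (-0.88). Plcxd1 overlaps 39.5% of the exons of Gtpbp6 and Gm44280 overlaps 65.2% of those of Rpusd3, so these levels are uncertain. The methyltransferase gene Nsun4, chosen after its values were seen, held 162, 248 and 337 CPM in wild type and 978, 268 and 1040.1 CPM in knockout, with knockout 2 inside the wild-type range (log2 fold change 1.61, adjusted p = 0.0659 by edgeR). Of 20 synthetases 2 were called lower, the alanine enzyme gene Aars2 (-1.02, adjusted p = 0.0161 by edgeR) and the glutamate enzyme gene Ears2 (-0.79, adjusted p = 0.0402 by edgeR). With the GC and length trends removed, 0 of the 68 genes were called, where 0.0186% of all tested genes were higher and 0.0651% lower. The median of the 68 genes was then -0.25, and 52 were below 0. At an unadjusted p under 0.05, 17 were lower and 3 higher, where 11.0% and 11.4% of all tested genes were.

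The RNAs that this ribosome reads, the 13 mRNAs of the mitochondrial genome, were all called higher, with a median log2 fold change of 2.91. With the GC and length trends removed, 0 of the 13 were called by edgeR, 12 had an unadjusted p under 0.05 and the median was 2.37. Of the 2 ribosomal RNAs, 1 was called higher, and 0 with the trends removed. The large ribosomal RNA, mt-Rnr2, held 101, 86.2 and 67.5 CPM in wild type against 281, 146 and 213 CPM in knockout, without overlap (log2 fold change 1.33, SE 0.25, adjusted p = 0.0209 by edgeR). The small ribosomal RNA, mt-Rnr1, held 73.3, 59.3 and 44.6 CPM in wild type and 8.99, 88.9 and 126 CPM in knockout, with knockout 1 far below every other sample (log2 fold change 0.34, adjusted p = 0.791 by edgeR, and -0.22 with the trends removed). The library kit selects mRNA, so values of ribosomal RNAs depend on how they were carried through. Leaving the genes of the mitochondrial genome out of the library sizes left 8 of the 11 members called and a median of -0.30.

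Set beside other large assemblies encoded in the nucleus, 17 of 82 cytosolic ribosomal protein genes (20.7%) were called lower and 11 of 36 genes of respiratory complex I (30.6%), with medians of -0.60 and -0.56. The mitochondrial ribosomal proteins, at 14.1% and -0.31, lay between these lists and all tested genes. With the GC and length trends removed the medians were -0.42, -0.49 and -0.20 in the same order. The lists were measured in the same 6 samples and the differences between them were not tested.

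**Figure D5:**
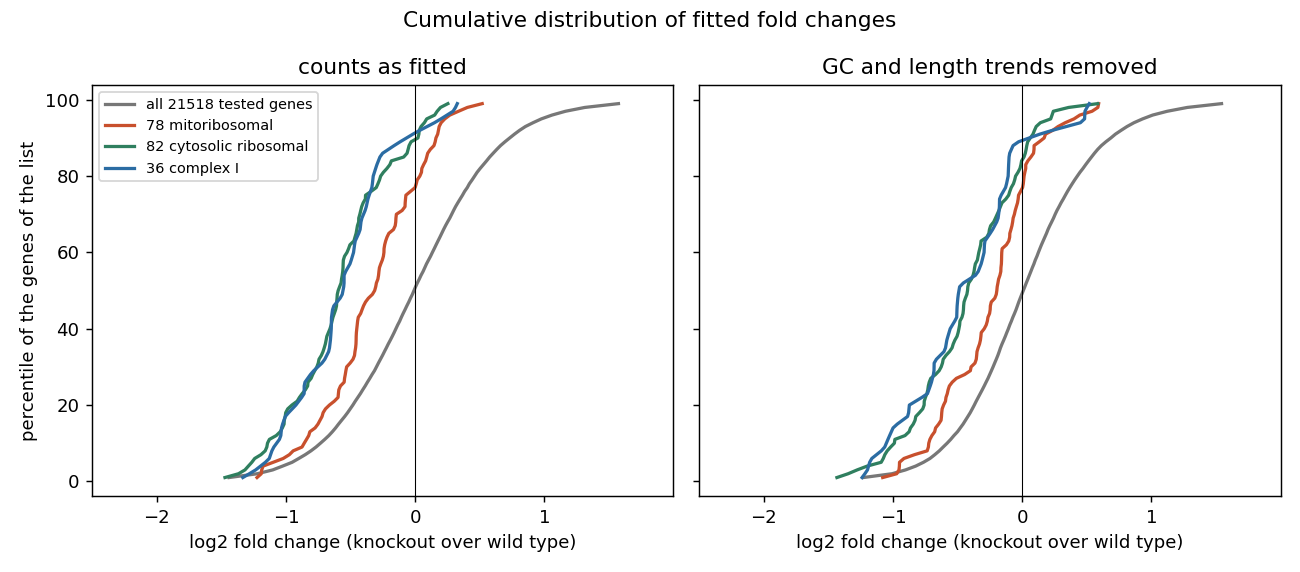
Cumulative distributions of log2 fold change for all 21518 tested genes, the 78 mitochondrial ribosomal proteins, 82 cytosolic ribosomal proteins and 36 complex I genes, as fitted (left) and with GC and length trends removed (right); the vertical axis is the percentile within each list. Over most of its height the mitochondrial ribosomal curve lies left of that for all genes and right of the other lists in both panels, with medians of -0.31 and -0.20.

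Members that start head to head with another coding gene were compared with that neighbour. There were 33 such pairings with starts within 1000 bases or overlapping, the pairing of Mrps11 with Mrpl46 being counted from both sides, and in 20 of them both genes were below 0. The neighbours had a median of -0.21 on the log2 fold scale. Of them, 5 were called lower and 0 higher: Apba3, Klc4 beside Mrpl2, Eme2 beside Mrps34, Fau beside Mrpl49, and Mrps11. Mrps11 is itself a called member, counted here as the neighbour of Mrpl46. Fold changes were below 0 for 50.7% of all tested genes and 76.9% of the members. Over all tested genes 5.12% were called lower and 3.11% higher. Whether the genes of a pairing move together was not tested. Fau, which encodes a cytosolic ribosomal protein, fell (-1.10) where Mrpl49, 59 bases away, did not pass the test (-0.15). Of 5 annotated pseudogenes of members, 4 were tested, 0 were called and all levels were at most 1.06 CPM, while Mrps36-ps3 was at 0 in every sample.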

How the data were processed

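RNA was measured in 3 wild-type and 3 KIFC1 knockout testis samples. The authors' deposited files hold raw counts per gene, as whole numbers without normalization. Per the submitters' processing notes, Trimmomatic, HISAT2, HTSeq and mm10 were used; the sources used here give no version, annotation release, strand setting or treatment of reads with several matches, so overlapping genes and near-identical copies cannot be told apart. Symbols, exon lengths and GC content came from GENCODE M21, which matched 51633 of 51826 identifiers. Depth ran from 29274603 to 38703606 counts, so 3 counts are 0.0763 to 0.0986 CPM, a floor for counting error only. Replicates differed beyond sampling noise in every pair (chi-square per degree of freedom from 15.4 to 135).

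Genes were tested with edgeR 4.0.16 in R 4.3.3 (quasi-likelihood, TMM, filterByExpr) on all 6 samples, without covariates, two-sided, with Benjamini-Hochberg adjustment over 21518 genes. It was tested on counts simulated for this comparison at these depths (21026 genes tested, 200 of them changed): 35% of 100 genes changed 2-fold and 92% of 100 genes changed 4-fold were called, with 14 unchanged genes among 141 calls. The simulated counts carried no trend with GC content or length, so they show nothing about calls under the trends of these libraries. SE was computed from the fold and the F statistic. Trends with GC content and length were removed by spline offsets (5 degrees of freedom, fitted on 12751 genes with mean log2 CPM above 2, prior count 2). DESeq2 1.42.0, other scalings and filters, a replicate block, a fit without mitochondrial genome genes and leaving out each sample were alternatives. Promoters came from RefSeq on GRCm38.p6.

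The members, lists and tests were chosen with earlier results of these data known. Named members were those called, the 4 largest rises and falls, the 3 highest and 3 lowest of each subunit by RPKM, and a set chosen for role (Mrpl2, Mrpl3, Mrpl10, Mrpl11, Mrpl12, Mrpl45, Mrpl58, Mrps2, Mrps7, Mrps12, Mrps18a, Mrps18b, Mrps18c, Mrps30, Mrps36). Of each other list, the called genes (at most 4) and the 2 with the smallest p were named.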

Additional observations from a re-analysis of the deposited data

How the results depend on the processing

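The median log2 fold change of the 78 members stayed negative under all 16 alternatives, and the 11 called members kept their direction in all 176 of their values. The 11 were chosen for falls in these same 6 samples, so their direction could hardly change. Counts of calls moved. DESeq2's Wald test called 3305 genes, 1 member higher and 18 other mitochondrial translation genes. Without the expression filter 1010 genes, 6 members lower and 4 other genes were called. With the GC trend removed 8 genes were called, with the GC and length trends removed 18, and with these and the replicate block 5. In each, 0 members and 0 other mitochondrial translation genes were called. At an unadjusted p under 0.05, 21, 19 and 19 members were lower. With both trends removed 11.0% of all tested genes were lower at that threshold, and the share was not computed for the other fits. Leaving out 1 sample gave from 0 to 15 members lower, 0 to 2 higher, 1 to 3149 genes in all and 0 to 16 other mitochondrial translation genes.

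The replicate block, with sample number as a term, called 21 genes, 0 members lower (22 at an unadjusted p under 0.05) and 0 other mitochondrial translation genes. The share of all tested genes at that unadjusted p was not computed for this fit. Sample numbers showed no pairing in these values: the correlations of deviations between same-numbered samples were -0.47, -0.12 and -0.14, and no sample correlated best with its own number. The deviations were taken within groups of 3 and carry the GC trends of the libraries, so a shared litter or batch could be missed.

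Of the genes named with a fold change, 9 changed sign under some setting. With the GC trend removed, with both trends removed, and with both and the block, Mrpl53 had log2 fold changes of 0.10, 0.17 and 0.17, Mrps21 of 0.024, 0.087 and 0.10, Mrpl3 of -0.14, -0.16 and -0.15, Sars2 of 0.10, 0.10 and 0.093, and mt-Rnr1 of -0.29, -0.22 and -0.76. With both trends removed, and with the block added, Mrps35 had -0.051 and -0.027, and Mrpl46 0.017 and 0.026. Mrps36 had -0.049 with the GC trend removed, Mrpl58 0.0073 with both trends removed and the replicate block, and mt-Rnr1 -0.13 under the block alone. Leaving out 1 sample gave -0.72 to 0.43 for Mrpl53, -0.52 to 0.10 for Mrps21, -0.0083 to 0.26 for Mrps35, -0.10 to 0.13 for Mrpl3, -0.36 to 0.16 for Mrpl58 and -0.26 to 0.86 for mt-Rnr1. Depth limits Mrpl53 most, with 0.757 CPM in wild type, and 3 samples a group limit all calls.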
